A study of Mus musculus with 12 samples.

Results

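Transcript levels of 40 cell cycle genes were followed in mouse mammary tumour organoids in which Cldn7 was lowered with short hairpin RNAs. The genes were taken from the deposited table by symbol, as a list of widely used cell cycle genes: 40 of the 25861 genes in the table. Earlier results of these data were known when the list was chosen. Counts over the list are therefore descriptions, and no test of the list was made. The 40 genes are the G1 cyclin gene Ccnd1, 15 genes of the start of DNA replication, the regulator gene Mybl2 and 23 genes of mitosis. Hairpin 1 libraries came from MMTV-Neu tumour organoids that received lentivirus with the first short hairpin RNA against Cldn7 (group sh1Cldn7), and hairpin 2 libraries from organoids with the second (sh2Cldn7). Control libraries came from organoids with a non-targeting hairpin (shControl). The targeted gene, Cldn7, codes for claudin 7 of the tight junctions between epithelial cells. All 3 groups shared the MMTV-Neu background, in which the mouse mammary tumour virus promoter drives the Neu oncogene in mammary epithelium. They also shared virus at a multiplicity of infection of 20, selection in puromycin at 3 µg/ml for 3 days, medium with 2.5 nM FGF2, and 5 days in collagen I. The labels give the genotype of every sample as WT and state no age of the animals. Each group had 4 libraries, numbered 1 to 4. The labels do not tell whether the 4 came from different animals or cultures, and p-values then measure only how far these libraries scatter, which may be technical scatter.

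Cells pass from G1 into DNA replication when cyclin D and cyclin E kinases release E2F factors, which turn on the genes for origin licensing, replication forks and nucleotide supply. Genes of mitosis are expressed later, in G2, under the MYB-MuvB complex and FOXM1, and many of their promoters hold a CHR element (cell cycle genes homology region) and CCAAT boxes. In the mammary epithelium Ccnd1 lies downstream of Neu signalling, and Mki67 is the gene of the Ki-67 protein that is stained to count cycling cells.

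Library totals ran between 34988358 and 44645514 counts in replicates 1 and 2 and between 68581024 and 76329473 counts in replicates 3 and 4. Every one of the 40 genes passed the filter on low counts, and their counts ran between 86 and 31927 in single libraries. Levels are given as CPM, the count of a gene scaled by the TMM-adjusted size of its library. The targeted gene Cldn7 had 31.1, 30.03, 44.2 and 29.01 CPM in hairpin 1 libraries, 27.4, 25.4, 34.7 and 26.1 CPM in hairpin 2 libraries and 144, 136, 186 and 101 CPM in control libraries. Cldn7 fell, with a log2 fold change of -2.18 (SE 0.0662) for both hairpins against the control and an adjusted p of 1.63e-07 in edgeR's quasi-likelihood test. The labelled cell type is primary epithelial cells, and epithelial markers were expressed in every library. The summed level of 8 such markers, Krt8 and Epcam among them, was lowest in replicate 4 of each group. It was 3023 to 5281 CPM with hairpin 1, 2922 to 4994 CPM with hairpin 2 and 3173 to 5464 CPM in the control. Markers of 3 other cell types differed by replicate number. The 10 fibroblast markers summed to 2160.3, 3161, 987 and 7766 CPM in hairpin 1 libraries, 3242, 3044, 2620.1 and 13675 CPM in hairpin 2 libraries and 2128, 2749, 838 and 6181 CPM in control libraries. Replicate 4 was highest in each group, and there the fibroblast sum exceeded the epithelial sum. The values were 7766 against 3023 CPM with hairpin 1, 13675 against 2922 CPM with hairpin 2 and 6181 against 3173 CPM in the control. In replicates 1 to 3 the fibroblast sum was the lower one. The summed levels of the 12 macrophage and of the 12 lymphocyte markers were highest in replicates 1 and 2 of each group. The leukocyte gene Ptprc had 2.18 to 9.21 CPM there and 0 to 0.179 CPM in replicates 3 and 4. Single markers could depart from the sums. Aif1 had 5, 21, 18 and 59 counts in hairpin 2 libraries 1 to 4, and Ms4a1 7, 8, 0 and 19 counts in hairpin 1 libraries, both highest in replicate 4. Because same-numbered libraries deviated together, each comparison was made with the replicate number in the model. Replicate 4 was the lowest of its group for nearly all of the cell cycle genes, as given below, and the medians are also given without it.

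The promoters of the 40 genes were searched for the elements named above, and 6 are shown because they carry them. RefSeq promoter windows of GRCm38.p6, 250 bases before to 50 bases after the transcription start, were found for 32 of the 40 genes, in 33 windows because Mcm7 has 2. Of the others, Mcm4, Tpx2, Ccnd1, Aurkb, Ccne2, Foxm1, Ccna2 and Kif20a are named only. The Cdc6, E2f1 and Mcm7 windows lie wholly inside the genes as GENCODE M21 bounds them, downstream of the first annotated start. That start is at 98907801 for Cdc6, and at 154569892 for E2f1 and 138172422 for Mcm7, both on the minus strand. Sequence around these first starts was not searched. Capitals mark E2F matches (TTTCCCGC, TTTCGCGC, TTTGCCGC or TTTGGCGC), CHR matches (TTTGAA or TTCGAA) and CCAAT boxes (CCAAT), each searched on both strands, where E2F matches on opposite strands may overlap. The windows lie, in mm10 coordinates, at chr11:98907901-98908200 on the plus strand for Cdc6, chr8:75109259-75109558 on the plus strand for Mcm5, chr1:128359656-128359955 on the minus strand for Mcm6, chr7:135716330-135716629 on the minus strand for Mki67, chr9:70421505-70421804 on the minus strand for Ccnb2 and chr10:69352863-69353162 on the minus strand for Cdk1. The first 3 belong to replication genes, with E2F matches, and the last 3 to mitosis genes, with CHR matches and CCAAT boxes; all are written 5′ to 3′ along the gene's strand.
Cdc6: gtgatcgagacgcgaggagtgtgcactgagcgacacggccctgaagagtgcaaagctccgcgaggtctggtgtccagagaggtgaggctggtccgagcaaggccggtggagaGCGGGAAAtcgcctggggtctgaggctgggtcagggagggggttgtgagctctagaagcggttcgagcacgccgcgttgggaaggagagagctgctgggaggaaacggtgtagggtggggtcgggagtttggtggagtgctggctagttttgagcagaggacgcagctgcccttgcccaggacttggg
Mcm5: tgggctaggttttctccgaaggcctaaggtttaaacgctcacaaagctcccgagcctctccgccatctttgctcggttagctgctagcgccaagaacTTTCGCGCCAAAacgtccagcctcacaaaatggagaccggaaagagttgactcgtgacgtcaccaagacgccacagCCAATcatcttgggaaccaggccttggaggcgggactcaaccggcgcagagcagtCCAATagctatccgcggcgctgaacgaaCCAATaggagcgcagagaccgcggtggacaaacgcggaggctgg
Mcm6: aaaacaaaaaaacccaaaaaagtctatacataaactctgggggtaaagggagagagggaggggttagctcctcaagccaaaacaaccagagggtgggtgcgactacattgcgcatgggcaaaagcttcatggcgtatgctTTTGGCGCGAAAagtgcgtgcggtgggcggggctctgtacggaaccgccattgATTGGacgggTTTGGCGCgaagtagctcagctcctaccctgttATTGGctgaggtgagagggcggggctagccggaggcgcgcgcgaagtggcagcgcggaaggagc
Mki67: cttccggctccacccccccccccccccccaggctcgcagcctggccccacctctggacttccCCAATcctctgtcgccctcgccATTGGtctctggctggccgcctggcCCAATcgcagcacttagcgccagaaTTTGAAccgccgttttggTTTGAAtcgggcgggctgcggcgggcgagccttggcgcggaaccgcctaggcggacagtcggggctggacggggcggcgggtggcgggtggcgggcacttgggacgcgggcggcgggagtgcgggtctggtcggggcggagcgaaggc
Ccnb2: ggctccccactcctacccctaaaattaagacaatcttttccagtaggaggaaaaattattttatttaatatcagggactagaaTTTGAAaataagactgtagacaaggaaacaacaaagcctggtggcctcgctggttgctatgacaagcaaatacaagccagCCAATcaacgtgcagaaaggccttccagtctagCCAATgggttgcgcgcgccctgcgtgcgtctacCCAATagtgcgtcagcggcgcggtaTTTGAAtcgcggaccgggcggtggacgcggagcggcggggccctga
Cdk1: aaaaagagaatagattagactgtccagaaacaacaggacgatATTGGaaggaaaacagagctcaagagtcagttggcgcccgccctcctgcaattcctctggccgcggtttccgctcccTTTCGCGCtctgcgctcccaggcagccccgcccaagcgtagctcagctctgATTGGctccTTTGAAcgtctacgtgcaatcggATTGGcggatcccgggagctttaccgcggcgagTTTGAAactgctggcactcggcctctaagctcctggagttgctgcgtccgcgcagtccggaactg

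An E2F match was present in 6 of 14 replication windows (42.9%), in 1 of 18 mitosis windows (5.56%) and in 2.26% of the 32851 promoter windows of all genes. CHR matches were in 2 of 14 replication windows (14.3%), in 14 of 18 mitosis windows (77.8%) and in 19.2% of all windows. CCAAT boxes were in 9 of 14 replication windows (64.3%), in 16 of 18 mitosis windows (88.9%) and in 37.4% of all windows. All 14 mitosis windows with a CHR match also held a CCAAT box. Cdk1 was the 1 mitosis gene with both an E2F and a CHR match. CHR matches of mitosis genes had a median position of -19.0 from the start, and 13 of their 21 lay within 60 bases before to 50 bases after it. Mybl2 had no match to any of these motifs in its window. The counts include the Cdc6, E2f1 and Mcm7 windows that lie inside their genes. A match describes letters in a window and no binding was measured.

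**Figure D1:**
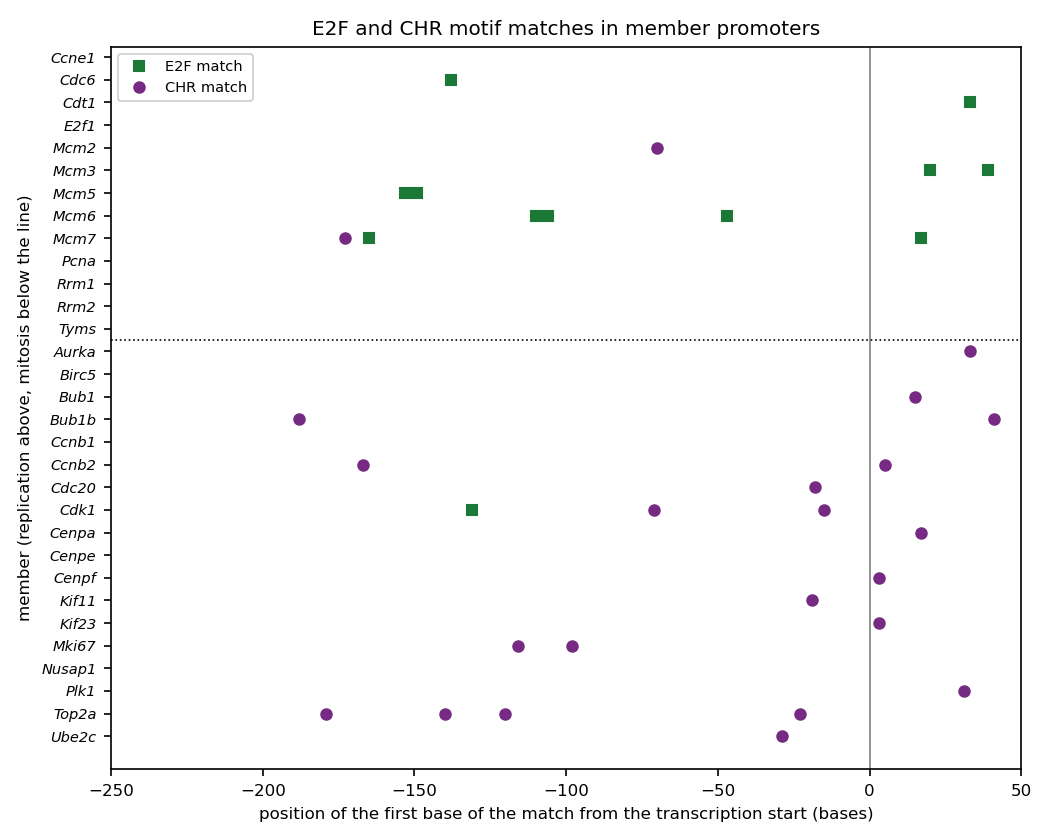
E2F matches (green squares) and CHR matches (purple circles) in the promoter windows of 13 replication genes and 18 mitosis genes, by position of the first base from the transcription start. E2F matches stand almost all above the dotted line, with the replication genes, and CHR matches mostly below it, with the mitosis genes.

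Levels of the 40 genes differed between replicate numbers in every group. Replicate 4 was the lowest of its group for 39 of 40 genes with hairpin 1 and 39 of 40 with hairpin 2, and for 40 of 40 genes in the control, against 29.6%, 30.5% and 31.4% of all genes tested in the same groups. Control replicate 4 was the lowest of all 12 libraries for 39 of 40 genes (12.1% of all genes), and hairpin 1 replicate 3 the highest for 33 of 40 (8.31%). The exception at the low end was Ccne2, whose lowest value was in hairpin 2 replicate 4. In these bulk libraries, fewer cycling cells and less RNA of these genes per cell cannot be told apart.

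Summed over the 23 mitosis genes, levels were 709, 853, 1133 and 234 CPM in hairpin 1 libraries 1 to 4, 562, 829, 547 and 283 CPM with hairpin 2 and 499.7, 699, 994 and 125 CPM in the control. The 15 replication genes summed to 689.5, 732, 945 and 349.8 CPM with hairpin 1, 550.4, 693, 537 and 373 CPM with hairpin 2 and 533, 594, 846 and 273 CPM in the control. Hairpin 2 replicate 3 stood low beside the same-numbered libraries of the other groups, while in both sums hairpin 2 replicates 1 and 2 stood between hairpin 1 and the control. Replicate 3 was the highest of its group for 35 of 40 genes with hairpin 1, for 1 of 40 with hairpin 2 and for 35 of 40 in the control, against 30.1%, 25.2% and 31.8% of all genes tested in the same groups.

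**Figure D2:**
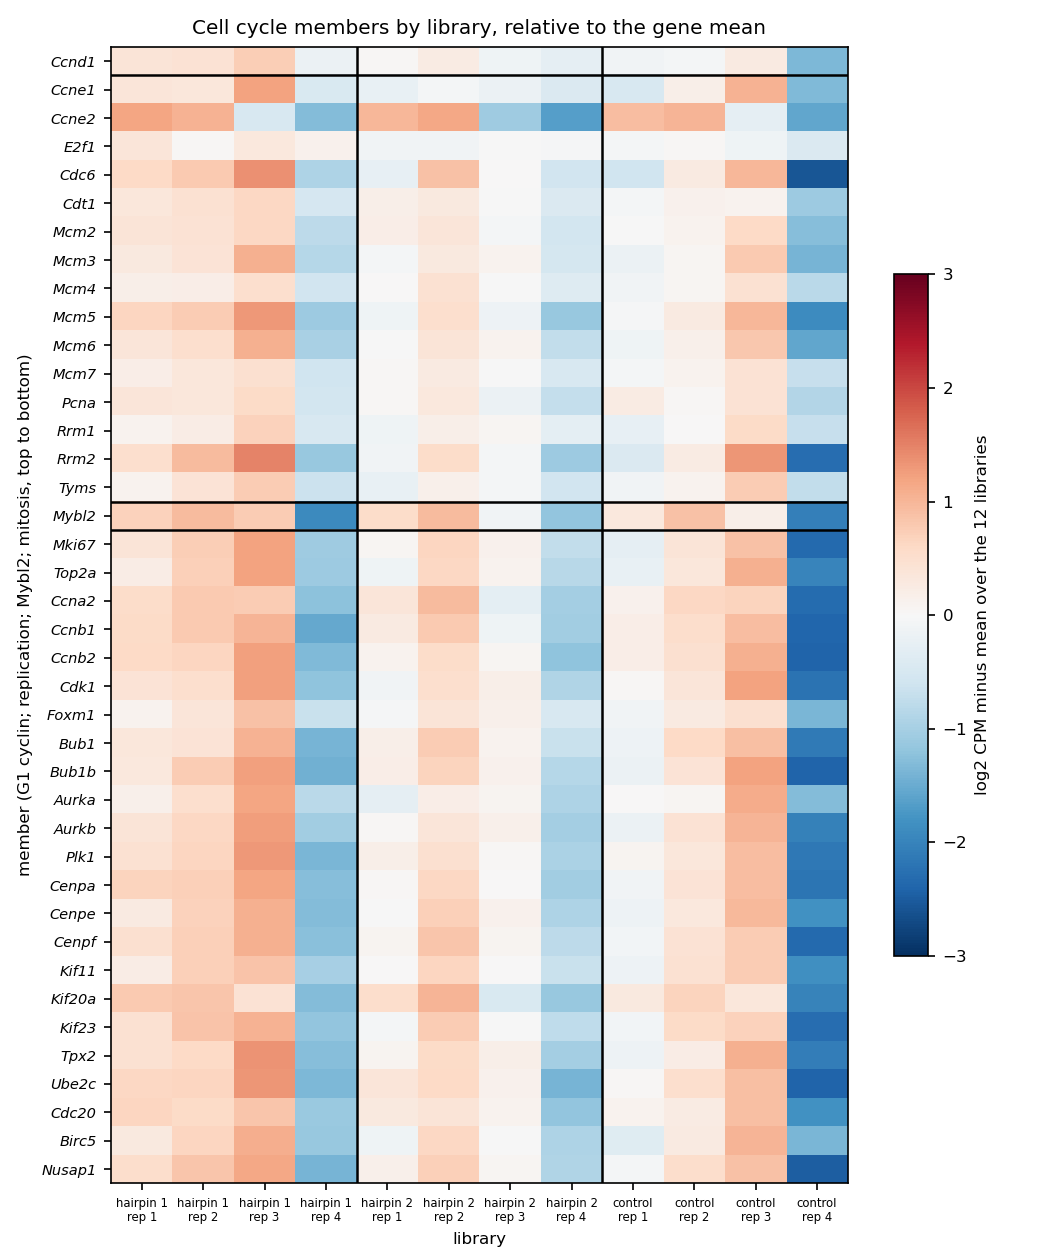
Each row is 1 of the 40 genes and each column 1 library; colour gives log2 CPM minus the gene's mean over the 12 libraries, with red above and blue below the mean. The replicate 4 columns are mostly blue in all 3 groups and darkest in the control, and the replicate 3 columns of hairpin 1 and the control are mostly red while that of hairpin 2 is pale.

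Over the 12 libraries the mitosis genes had a median range of 3.32 on the log2 CPM scale, the replication genes 1.90 and all genes tested 1.11. Within groups, the median range of the mitosis genes was 2.31 with hairpin 1, 1.57 with hairpin 2 and 3.04 in the control, and that of the replication genes 1.39, 0.86 and 1.87 in the same groups. The range over the 4 libraries was narrower than in the control for 40 of 40 genes with hairpin 1 and for 39 of 40 with hairpin 2; the same held for 60.6% and 68.2% of all genes. Ccne2, which encodes cyclin E2, was the gene whose range with hairpin 2 exceeded that in the control. Its levels, shown because they departed from the other members and so chosen after its values were seen, were 14.7, 13.5, 4.65 and 2.61 CPM with hairpin 1, 12.96, 14.5, 3.09 and 2.04 CPM with hairpin 2 and 12.4, 13.2, 5.34 and 2.18 CPM in the control. Ccne2 was thus high in replicates 1 and 2 of each group and low in replicates 3 and 4.

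Fibroblast markers were on average highest in replicate 4 and lowest in replicate 3 of each group. Cell cycle genes were mostly lowest in replicate 4 of each group. They were mostly highest in replicate 3 with hairpin 1 and in the control, but not with hairpin 2. The mean log2 CPM of the 10 fibroblast markers in replicate 4 was 7.51 with hairpin 1, 8.07 with hairpin 2 and 7.03 in the control, and in replicate 3 it was 3.74, 4.61 and 3.58 in the same groups. The mitosis genes averaged 3.04 with hairpin 1, 3.31 with hairpin 2 and 2.17 in the control in replicate 4, and 5.33, 4.28 and 5.15 in replicate 3. In hairpin 2 replicate 3, low for cell cycle genes beside the same-numbered libraries, the fibroblast markers summed to 2620 CPM, against 838 CPM in control replicate 3. The fibroblast sum was also above the control in the other hairpin 2 pairs, where the mitosis sum was above the control too. In replicate 4 these sums were 13675 against 6181 CPM for fibroblast markers and 283 against 125 CPM for mitosis genes. Leukocyte markers had another pattern: the 12 macrophage markers summed to 34.2 to 126 CPM in replicates 1 and 2 and to 2.67 to 21.4 CPM in replicates 3 and 4. The part of these cells in the cell cycle values was not tested.

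**Figure D3:**
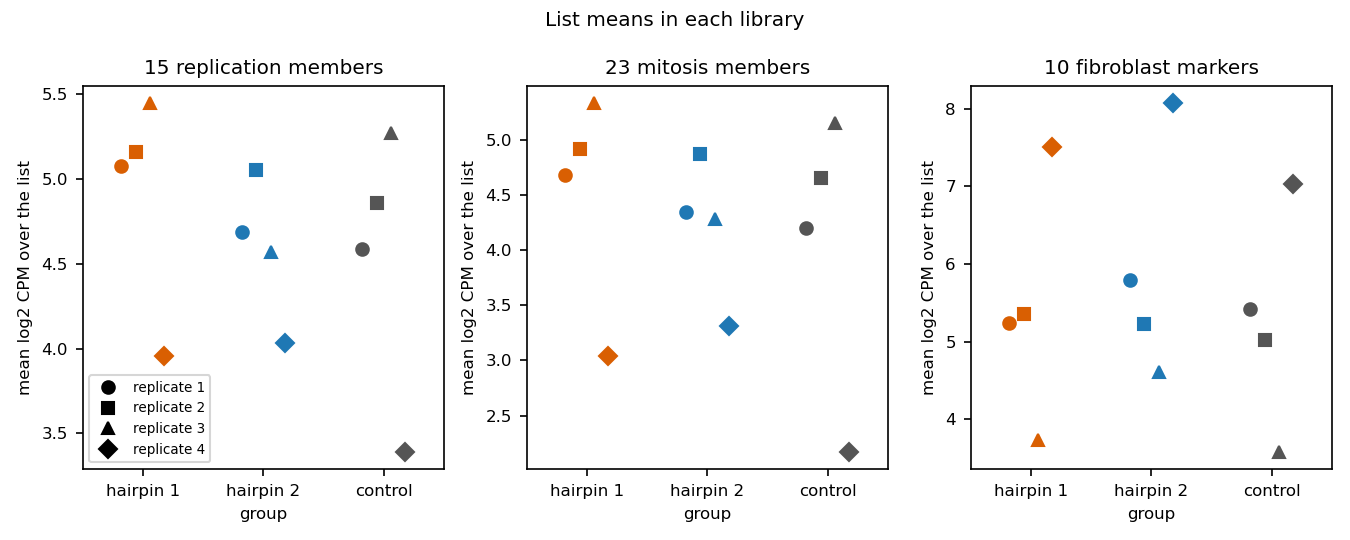
Mean log2 CPM of the 15 replication genes, the 23 mitosis genes and the 10 fibroblast markers in each library, by group, with the replicate number as the symbol. Replicate 4 (diamonds) is lowest for both sets of cell cycle genes and highest for the fibroblast markers in each group.

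With both hairpins considered against the control, 38 of the 40 genes had a positive log2 fold change (49.4% of all genes tested), and no member passed the adjusted p threshold of 0.05. The threshold was passed by 304 of 17025 genes, 1.79%. The median log2 fold change was 0.22 for the 15 replication genes, 0.27 for the 23 mitosis genes and -0.0024 for all genes. In edgeR 3 members, Ccnd1, Cdt1 and E2f1, had an unadjusted p under 0.05 (17.2% of all genes did), and DESeq2 with the replicate number called 1, Ccnd1 (6.73% of all genes). Single libraries moved that edgeR count: it was 33 without hairpin 2 replicate 3 (18.6% of all genes) and 23 without control replicate 3 (13.2%). It was 0 without control replicate 4 (15.9%), and 2 or 3 without any other library (12.7% to 18.6%). The smallest adjusted p in edgeR was 0.14, for Cdt1, with all 12 libraries.

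Hairpin 1 alone gave positive values for all 40 members (49.5% of all genes), with a median log2 fold change of 0.36 for replication and 0.39 for mitosis genes, and no member passed the threshold. For all genes the threshold was passed by 0.728%. In edgeR 9 members had an unadjusted p under 0.05 (12.8% of all genes), and DESeq2 with the replicate number called 2, Ccnd1 and Cdt1 (3.57% of all genes). The edgeR count of 9 became 34 without hairpin 2 replicate 3 (16.3% of all genes) and 33 without control replicate 3 (12.7%). It was 19 without hairpin 2 replicate 4 (12.4%), and 3 to 6 without any other library (9.07% to 13%). Without the hairpin 2 libraries in the model, 37 members had an unadjusted p under 0.05 (16.4% of all genes), and edgeR called 9 members for hairpin 1, Ccnd1, Cdt1, Mcm3, Mcm5, Mcm6, Rrm2, Mki67, Plk1 and Tpx2, and 2.39% of all genes. Hairpin 2 alone gave positive values for 34 of 40 members (50.8% of all genes), with medians of 0.09 for replication and 0.16 for mitosis genes. No member passed the threshold for hairpin 2, where 5.76% of all genes did, none had an unadjusted p under 0.05 in edgeR (22.6% of all genes), and DESeq2 called 0 members and 10.9% of all genes. Without hairpin 2 replicate 3, 29 members had an unadjusted p under 0.05 for hairpin 2 in edgeR (19.6% of all genes), all with positive values. The count was 3 without control replicate 3 (16.6%) and 0 without any other library (17.2% to 24.3%). These comparisons share the control libraries. The 4-library ranges of each hairpin overlapped those of the control for all 40 genes; ranges that did not overlap were seen for 1.19% of all genes with hairpin 1 and 2.1% with hairpin 2.

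**Figure D4:**
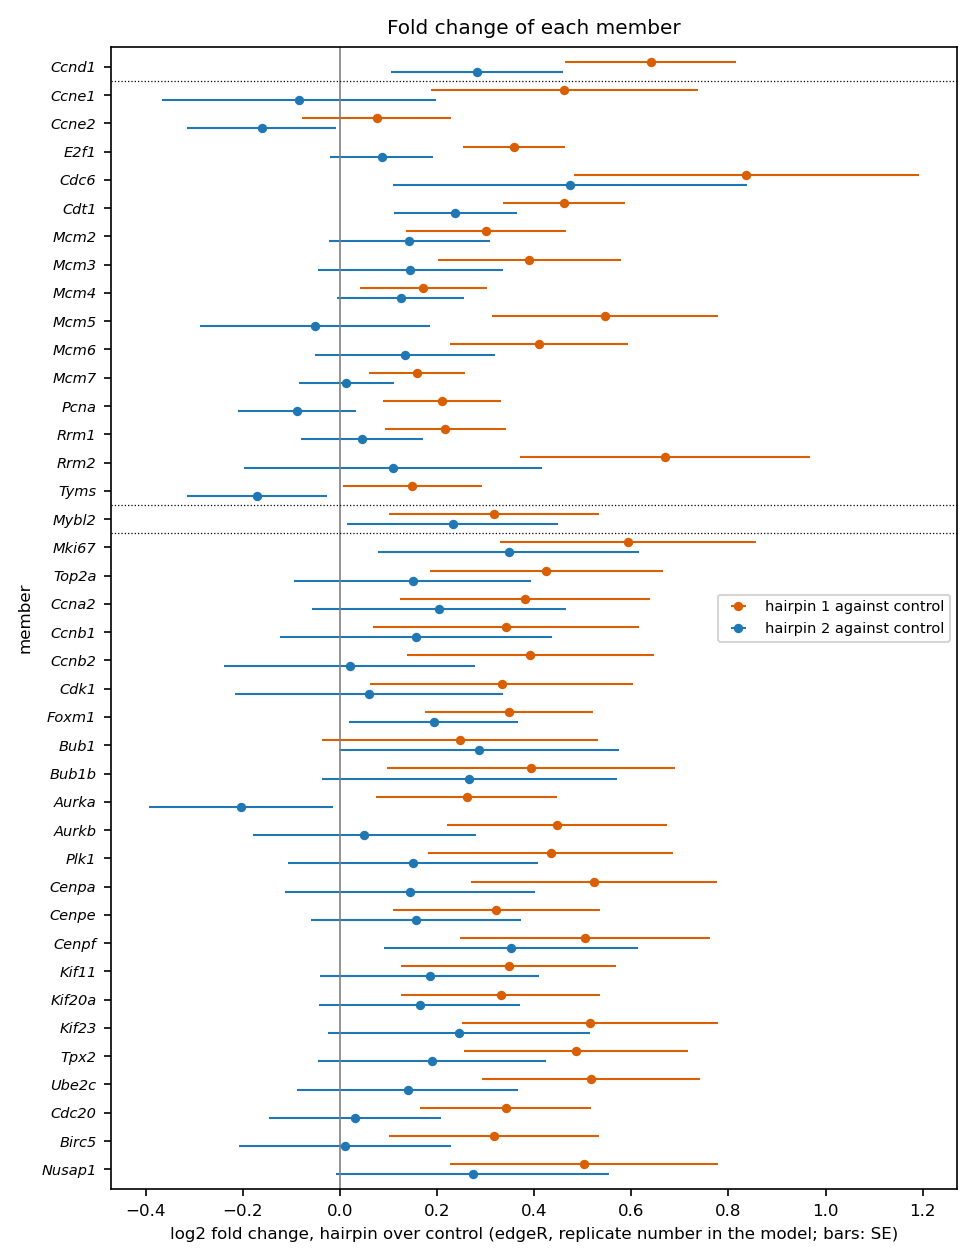
Log2 fold change of each of the 40 genes against the control in the edgeR model with the replicate number, for hairpin 1 (orange) and hairpin 2 (blue), with bars of 1 SE. All hairpin 1 values lie above 0, up to 0.84 for Cdc6, and hairpin 2 values lie between -0.20 for Aurka and 0.47 for Cdc6.

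Ccnd1 encodes cyclin D1, the partner of the G1 kinases CDK4 and CDK6, and had, per length, the highest hairpin 1 level of the 40 genes at 98.8 ± 24.3 CPM per kb of exon (SD, n = 4), against 74.8 ± 11.7 with hairpin 2 and 65.9 ± 25.9 in the control. Ccnd1 had 370.1, 381, 474 and 253 CPM in hairpin 1 libraries 1 to 4, 289.6, 336, 259.9 and 234 CPM in hairpin 2 libraries 1 to 4, and 262, 273, 340.1 and 111 CPM in control libraries 1 to 4. Ccnd1 was higher in each hairpin 1 library than in the same-numbered control, while hairpin 2 replicate 3 lay below its control. Its log2 fold change was 0.64 (SE 0.176) for hairpin 1 and 0.28 (SE 0.177) for hairpin 2, with edgeR adjusted p of 0.147 and 0.383.

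The 3 genes of cyclin E and E2F had a median log2 fold change of 0.36 with hairpin 1 and -0.08 with hairpin 2. Ccne1 had 6.18, 6.13, 11.1 and 3.51 CPM in hairpin 1 libraries 1 to 4, 4.11, 4.62, 4.23 and 3.56 CPM in hairpin 2 libraries 1 to 4, and 3.45, 5.45, 9.996 and 1.89 CPM in control libraries 1 to 4. Ccne1, whose cyclin E1 activates CDK2 at the start of replication, stayed between 3.56 and 4.62 CPM in all 4 hairpin 2 libraries, a narrower spread than in the other groups. Libraries 1 to 4 held 20.9, 16.5, 20.3 and 17.8 CPM of E2f1 with hairpin 1, 15.1, 15.2, 16.1 and 15.96 CPM with hairpin 2, and 15.7, 16.6, 14.97 and 11.96 CPM with the control hairpin. E2f1, an activator of replication genes, was the most even of the 40 genes, with a range of 0.80 on the log2 scale over the 12 libraries. The E2f1 ranges of hairpin 1 and the control met at 16.5 and 16.6 CPM. Log2 fold changes of E2f1 were 0.36 (SE 0.106) for hairpin 1, with an edgeR adjusted p of 0.178, and 0.09 (SE 0.106) for hairpin 2.

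Origin licensing was represented by 8 genes, with a median log2 fold change of 0.40 for hairpin 1 and 0.14 for hairpin 2. Cdc6 and Cdt1 encode the factors that load the MCM helicase onto origins, and Mcm2 to Mcm7 its 6 subunits. For Cdt1, hairpin 1 libraries gave 14.1, 15.2, 16.997 and 7.81 CPM in order of replicate number, hairpin 2 libraries 12.5, 13.5, 10.9 and 8.2 CPM, and control libraries 10.6, 12.1, 11.9 and 5.19 CPM. Cdt1 was higher than the same-numbered control in all hairpin 1 pairs and lower in hairpin 2 pair 3. Its log2 fold change was 0.46 (SE 0.126) for hairpin 1 and 0.24 (SE 0.126) for hairpin 2 (edgeR adjusted p 0.147 and 0.3). The fold change of Cdc6 was the largest of all members, at 0.84 (SE 0.355) for hairpin 1 and 0.47 (SE 0.365) for hairpin 2, with a wide error. Cdc6 did not pass the threshold in either, at edgeR adjusted p 0.358 and 0.486.

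Libraries 1 to 4 held 54.3, 55.7, 63.02 and 24.1 CPM of Mcm2 with hairpin 1, 47.4, 53.3, 39.4 and 27.96 CPM with hairpin 2, and 40.7, 44.1, 62.1 and 16.9 CPM with the control hairpin. Mcm5 had 49.2, 53.7, 77.8 and 14.8 CPM in hairpin 1 libraries 1 to 4, 28.7, 44.7, 28.2 and 14.3 CPM in hairpin 2 libraries 1 to 4, and 30.7, 37.9, 62.8 and 8.45 CPM in control libraries 1 to 4. Mcm5 was higher than its same-numbered control in all 4 hairpin 1 pairs, whereas hairpin 2 was below the control in pairs 1 and 3. Fold changes of Mcm5 were 0.55 (SE 0.233) for hairpin 1 and -0.05 (SE 0.237) for hairpin 2, and those of Mcm2 0.30 (SE 0.165) and 0.14 (SE 0.166). Among the 6 MCM genes the hairpin 1 values ran between 0.16 for Mcm7 and 0.55 for Mcm5, and the hairpin 2 values between -0.05 for Mcm5 and 0.14 for Mcm3. The promoters of Mcm5 and Mcm6 printed above hold 2 and 3 E2F matches, the Mcm3 window holds 2 and the Mcm2 window none. Of the 2 Mcm7 windows 1 holds 2 and the other none, and Mcm4 had no window. A link between these matches and the fold changes was not tested.

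Pcna (the sliding clamp of replication forks), Rrm1 and Rrm2 (the subunits of ribonucleotide reductase) and Tyms (thymidylate synthase) had a median log2 fold change of 0.21 for hairpin 1 and -0.02 for hairpin 2. For Pcna, hairpin 1 libraries gave 131, 128, 151 and 68.98 CPM in order of replicate number, hairpin 2 libraries 105, 126, 89.7 and 62.1 CPM, and control libraries 120.4, 104, 138 and 55.5 CPM. In level per length Pcna was second to Ccnd1 with hairpin 1, at 78.8 CPM per kb, and with hairpin 2, at 63.0. In the control it stood above Ccnd1, at 68.8 against 65.9 CPM per kb. It was lower than the same-numbered control in hairpin 2 pairs 1 and 3. The log2 fold change of Pcna was 0.21 (SE 0.121) for hairpin 1 and -0.09 (SE 0.122) for hairpin 2. Rrm2, the limiting subunit that cycles, had 0.67 (SE 0.299) for hairpin 1, and Rrm1 0.22 (SE 0.125).

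Mybl2, the MYB protein of the MYB-MuvB complex, was among the lowest per length, at 1.89 CPM per kb with hairpin 1, 1.63 with hairpin 2 and 1.52 in the control. Mybl2 had 8.08, 9.66, 8.54 and 1.31 CPM in hairpin 1 libraries 1 to 4, 7.3, 9.68, 4.62 and 2.19 CPM in hairpin 2 libraries 1 to 4, and 6.22, 9.17, 5.68 and 1.18 CPM in control libraries 1 to 4. Replicate 4 was far below replicates 1 to 3 in each group, also with hairpin 1. The log2 fold change was 0.32 (SE 0.216) for hairpin 1 and 0.23 (SE 0.217) for hairpin 2, and neither passed the threshold (edgeR adjusted p 0.597 and 0.574).

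Mki67 and Top2a encode the Ki-67 protein, which coats mitotic chromosomes, and DNA topoisomerase II alpha, which untangles them. Libraries 1 to 4 held 116, 148, 203 and 42.6 CPM of Mki67 with hairpin 1, 91.6, 138, 97.02 and 52.8 CPM with hairpin 2, and 73.4, 117, 162 and 17.6 CPM with the control hairpin. Top2a had 83.4, 117, 163 and 33.2 CPM in hairpin 1 libraries 1 to 4, 64.996, 109, 76.02 and 39.8 CPM in hairpin 2 libraries 1 to 4, and 60.6, 90.3, 148 and 17.98 CPM in control libraries 1 to 4. Both were lowest in control replicate 4, and hairpin 2 replicate 3 held less of each than control replicate 3. The same-numbered differences of Mki67 in log2 CPM were 0.66, 0.35, 0.32 and 1.27 for hairpin 1 and 0.32, 0.24, -0.74 and 1.58 for hairpin 2. Fitted over all pairs, Mki67 had 0.59 (SE 0.263) for hairpin 1 and 0.35 (SE 0.268) for hairpin 2, with edgeR adjusted p of 0.384 and 0.488. Top2a had 0.42 (SE 0.24) for hairpin 1 and 0.15 (SE 0.244) for hairpin 2.

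Cyclins A2, B1 and B2, their kinase Cdk1 and the G2 transcription factor Foxm1 had a median log2 fold change of 0.35 for hairpin 1 and 0.16 for hairpin 2. For Ccnb1, hairpin 1 libraries gave 21.6, 24.9, 29.02 and 4.95 CPM in order of replicate number, hairpin 2 libraries 17.5, 24.8, 13.2 and 6.95 CPM, and control libraries 16.5, 20.7, 27.4 and 2.73 CPM. Libraries 1 to 4 held 25.98, 27.97, 46.5 and 8.51 CPM of Cdk1 with hairpin 1, 18.3, 27.96, 22.1 and 10.5 CPM with hairpin 2, and 19.9, 25.2, 45.4 and 4.18 CPM with the control hairpin. Of both genes, control replicate 4 held the least of all 12 libraries. Cdk1 had 0.33 (SE 0.271) for hairpin 1 and 0.06 (SE 0.276) for hairpin 2, and Ccnb1 0.34 (SE 0.274) and 0.16 (SE 0.28). Foxm1 had 13.2, 15.9, 22.8 and 7.68 CPM in hairpin 1 libraries 1 to 4, 12.04, 16.1, 13.5 and 8.85 CPM in hairpin 2 libraries 1 to 4, and 11.5, 14.8, 17.1 and 4.71 CPM in control libraries 1 to 4. Foxm1 had a range of 2.26 on the log2 CPM scale over the 12 libraries, against the median of 3.32 for the mitosis genes. Its fold change was 0.35 (SE 0.173) for hairpin 1 and 0.19 (SE 0.174) for hairpin 2.

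The mitotic kinases Aurka, Aurkb and Plk1 and the passenger protein gene Birc5 had a median of 0.38 for hairpin 1 and 0.03 for hairpin 2. For Aurka, hairpin 1 libraries gave 16.1, 20.4, 32.7 and 8.32 CPM in order of replicate number, hairpin 2 libraries 11.9, 16.7, 15.3 and 7.65 CPM, and control libraries 14.7, 15.2, 31.6 and 5.82 CPM. Aurkb had 13.05, 15.4, 23.8 and 4.8 CPM in hairpin 1 libraries 1 to 4, 10.2, 12.8, 11.1 and 4.93 CPM in hairpin 2 libraries 1 to 4, and 8.87, 13.6, 20.1 and 2.43 CPM in control libraries 1 to 4. Aurka, which acts at centrosomes, was the 1 mitosis gene with a negative value for hairpin 2, at -0.20 (SE 0.189) against 0.26 (SE 0.186) for hairpin 1. Hairpin 2 libraries 1 and 3 held less Aurka than their controls. Aurkb, the kinase of the chromosomal passenger complex, had 0.45 (SE 0.227) for hairpin 1 and 0.05 (SE 0.23) for hairpin 2.

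Kinetochore and checkpoint genes, which attach chromosomes to the spindle and hold back anaphase (Bub1, Bub1b, Cenpa, Cenpe and Cenpf), had a median log2 fold change of 0.39 for hairpin 1 and 0.27 for hairpin 2. Libraries 1 to 4 held 37.99, 44.9, 56.5 and 11.4 CPM of Cenpf with hairpin 1, 28.999, 48.2, 28.8 and 15.7 CPM with hairpin 2, and 25.7, 36.6, 46.2 and 5.39 CPM with the control hairpin. Cenpf was higher than in the same-numbered control in all hairpin 1 pairs, and in pairs 1, 2 and 4 with hairpin 2. Fold changes of Cenpf were 0.51 (SE 0.257) for hairpin 1 and 0.35 (SE 0.262) for hairpin 2 (edgeR adjusted p 0.463 and 0.47).

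The spindle genes (the motors Kif11, Kif20a and Kif23, and Tpx2 and Nusap1, which organise its microtubules) had a median of 0.49 for hairpin 1 and 0.19 for hairpin 2, with single values between 0.33 and 0.51 and between 0.16 and 0.27. Cdc20 and Ube2c, an activator and an enzyme of the anaphase-promoting complex that marks mitotic cyclins for removal, had a median of 0.43 for hairpin 1 and 0.08 for hairpin 2. For Cdc20, hairpin 1 libraries gave 36.4, 34.5, 41.2 and 10.7 CPM in order of replicate number, hairpin 2 libraries 28.6, 30.6, 24.9 and 10.3 CPM, and control libraries 24.8, 27.6, 43.6 and 6.56 CPM. Cdc20 in hairpin 1 replicate 3 was slightly below its control, and all other hairpin 1 libraries were above theirs. Ube2c had 0.52 (SE 0.225) for hairpin 1, the largest value over its SE among the 23 mitosis genes, and 0.14 (SE 0.228) for hairpin 2.

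Replication and mitosis genes were next set side by side in each pair of same-numbered libraries. With hairpin 1 the median difference in log2 CPM from the control in pairs 1 to 4 was 0.41, 0.32, 0.15 and 0.52 for replication genes and 0.49, 0.30, 0.14 and 0.88 for mitosis genes. With hairpin 2 it was 0.12, 0.24, -0.68 and 0.66 for replication genes and 0.17, 0.19, -0.86 and 1.17 for mitosis genes. The mean of the 4 pair medians was 0.35 ± 0.16 for replication and 0.45 ± 0.32 for mitosis genes with hairpin 1, and 0.08 ± 0.56 and 0.17 ± 0.83 with hairpin 2 (SD, n = 4 pairs). The SD exceeded the mean for both sets with hairpin 2 and for neither with hairpin 1. Both sets had their largest median in pair 4, where the control library was lowest, and their lowest in pair 3. With each hairpin the mitosis median was above the replication median in pairs 1 and 4 and below it in pairs 2 and 3. The SDs hold the shift between pairs that both sets share, so they do not measure the spread of the difference between the sets. That difference was not tested.

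**Figure D5:**
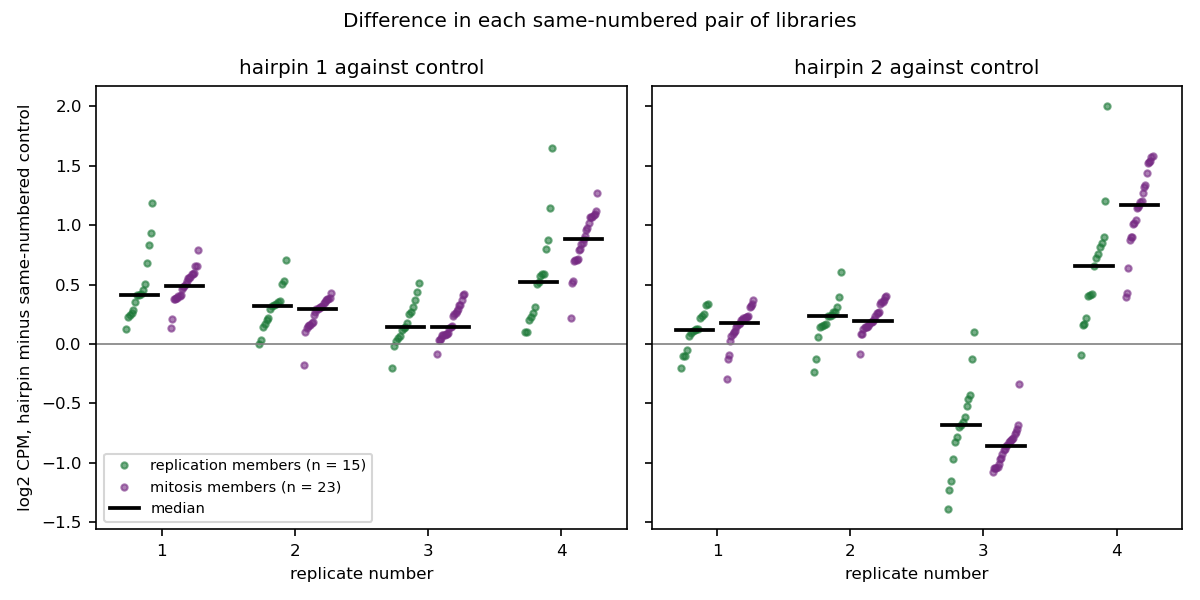
Difference in log2 CPM between each hairpin library and the control library with the same number, for the replication genes (green) and mitosis genes (purple), with bars at the medians. Both sets lie mostly above 0 in all 4 hairpin 1 pairs, and in hairpin 2 pair 3 the medians are -0.68 and -0.86.

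Counted gene by gene, hairpin 1 libraries held more than the same-numbered control for 40, 38, 37 and 40 of the 40 genes in pairs 1 to 4, and hairpin 2 libraries for 33, 37, 1 and 39. Over all genes tested these shares were 49.1%, 50.2%, 48.6% and 51.5% for hairpin 1 and 51%, 50.5%, 46.1% and 52.8% for hairpin 2. In all 4 pairs 35 of 40 genes were higher with hairpin 1 (11.8% of all genes) and 0 of 40 with hairpin 2 (12.6%). E2f1 was the 1 gene higher in hairpin 2 pair 3. The pairs of both hairpins use the same control libraries.

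Without replicate 4 of all groups, the median for both hairpins was 0.10 for replication and 0.09 for mitosis genes, with 34 of 40 genes positive, and for hairpin 1 it was 0.30 and 0.28. The hairpin 2 values turned with single replicates. Without replicate 4 of all groups, the hairpin 2 median was -0.10 for replication and -0.14 for mitosis genes, and 5 of 40 genes were positive. With no replicate number in the model these medians were -0.03 and -0.09, and 13 of 40 genes were positive. Without control replicate 4 alone they were -0.01 and -0.05, and without hairpin 2 replicate 4 they were -0.08 and -0.06. Leaving out hairpin 2 replicate 3 gave 0.25 and 0.44, and leaving out replicate 3 of all groups gave 0.30 and 0.50 with 40 of 40 genes positive. For hairpin 1 all 40 genes stayed positive in each of these fits. The hairpin 1 median without control replicate 4 was 0.26 for replication and 0.20 for mitosis genes, and without control replicate 3 it was 0.51 and 0.64. Without hairpin 2 replicate 3, edgeR called Ccnd1, Cdt1 and Tpx2 for both hairpins against the control (3.26% of all genes) and Ccnd1 and Cdt1 for hairpin 1 (2.02%); these rose with the hairpins.

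Hairpin 2 was then compared with hairpin 1 in the model of all 12 libraries. No member passed the threshold (3.44% of all genes did), 5 had an unadjusted p under 0.05 in edgeR (20.1% of all genes), and DESeq2 called 0 members and 8.43% of all genes. The value was positive for 1 of 40 genes, against 51.6% of all genes, and negative for the other 39, with a median of -0.27 for replication and -0.27 for mitosis genes. With the control libraries left out of the model, 10 members had an unadjusted p under 0.05 in edgeR (21.5% of all genes), none passed the threshold (3.06%) and 0 of 40 were positive. The 5 genes were E2f1, Mcm5, Pcna, Tyms and Aurka. Mcm5 had -0.60 (SE 0.235), Aurka -0.46 (SE 0.188) and E2f1 -0.27 (SE 0.105), with edgeR adjusted p of 0.193, 0.203 and 0.187. E2f1 was the 1 gene whose ranges did not overlap, at 15.1 to 16.1 CPM with hairpin 2 and 16.5 to 20.9 CPM with hairpin 1 (2.4% of all genes did not overlap). Bub1 was the 1 gene with a positive value, 0.04 (SE 0.286). Pair by pair, hairpin 2 exceeded hairpin 1 for 0, 10, 0 and 32 of 40 genes in pairs 1 to 4, against 51.6%, 50.5%, 47.2% and 51.7% of all genes, and in all 4 pairs for 0 of 40 (15.6% of all genes). Without hairpin 2 replicate 3 the median was -0.08 for replication and 0.02 for mitosis genes. In that fit 1 member had an unadjusted p under 0.05 in edgeR (16.6% of all genes). Without hairpin 2 replicate 4 the medians were -0.37 and -0.55, and 28 members had an unadjusted p under 0.05 (18.2% of all genes), all with negative values. This edgeR count was 25 without replicate 4 of all groups (16.3%), 9 without control replicate 3 (21.4%) and 7 without control replicate 4 (20.6%). It was 0 to 4 without any other single library (14.3% to 21.1%), with 0 without hairpin 1 replicate 3 or hairpin 2 replicate 1.

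Replicates 1 and 2 and replicates 3 and 4, which differed in depth and in leukocyte markers, were compared as sets. In a fit of replicates 1 and 2 alone, all 40 genes were positive over both hairpins, with medians of 0.24 for replication and 0.28 for mitosis genes, and 28 had an unadjusted p under 0.05 in edgeR (11.6% of all genes). With replicates 3 and 4 alone, 36 of 40 were positive, with medians of 0.16 and 0.31, and 1 had an unadjusted p under 0.05 (11.8%). No member passed the adjusted threshold in either set, where 0.151% and 0.0303% of all genes did. Mki67 had 0.58 (SE 0.414) in replicates 3 and 4 and 0.39 (SE 0.0811) in replicates 1 and 2, and Rrm2 0.23 (SE 0.456) and 0.57 (SE 0.0848) in the same sets. The difference between the sets, tested as an interaction in edgeR, passed the threshold for 0 of 17025 genes (0% of all genes, 5.97% at an unadjusted p under 0.05). No member had an unadjusted interaction p under 0.05, and the smallest was 0.0756, for E2f1.

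Lists of other genes of the same pathways were read beside the 40. Of 48 other mitosis genes, none passed the threshold over both hairpins; 46 were positive, with a median log2 fold change of 0.23, and with hairpin 1 and hairpin 2 alone 48 and 40 were positive, with medians of 0.36 and 0.12. The smallest p values over both hairpins belonged to Espl1, the separase gene, at 0.48 (SE 0.149), and Cit, which encodes the citron kinase of cytokinesis, at 0.60 (SE 0.196). Their edgeR adjusted p were 0.136 and 0.15. Of 42 other replication genes, 35 were positive over both hairpins with a median of 0.11, 38 with hairpin 1 and 26 with hairpin 2. Pold3, a subunit of DNA polymerase delta, was higher with hairpin 2 at 0.27 (SE 0.0654), with an edgeR adjusted p of 0.0402, and was the only gene of this list past the threshold in the 4 comparisons, a share of 1 in 42 against 5.76% of all genes with hairpin 2. Pold3 had 43.2, 47.6, 57.9 and 44.8 CPM in hairpin 2 libraries and 32.04, 39.6, 49.5 and 39.8 CPM in control libraries, higher in all 4 pairs. Its call was lost in 10 of 12 edgeR fits that left out 1 library each, where adjusted p ran between 0.0355 and 0.136. Pold1, the catalytic subunit, had 0.17 (SE 0.0731) over both hairpins.

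Among 22 inhibitors and checkpoint genes, none passed the threshold against the control, and 19 were positive over both hairpins with a median of 0.12. Cdkn2c, an inhibitor of CDK4 and CDK6, had 0.53 (SE 0.156) and Ccng2, a cyclin of growth-arrested cells, 0.20 (SE 0.0542), with edgeR adjusted p of 0.121 and 0.0905. Between the hairpins 2 of the 22 passed, against 3.44% of all genes. Btg2, an antiproliferative gene, was higher with hairpin 2 at 0.39 (SE 0.0877) and Gadd45a, a gene of the DNA damage response, lower at -0.56 (SE 0.124), with edgeR adjusted p of 0.0408 and 0.0389. Leaving out 1 library ended the call in 7 of 12 fits for Btg2 and in 9 of 12 for Gadd45a, with edgeR adjusted p up to 0.152 and 0.136. Gadd45a had 64.6, 33.6, 40.1 and 54.5 CPM with hairpin 2 and 83.9, 60.3, 43.6 and 103 CPM with hairpin 1. Of 28 other cyclin, CDK, CDC25 and E2F genes none passed the threshold in any of the 4 comparisons; 18 were positive over both hairpins with a median of 0.06. Ccnd2, the gene of cyclin D2, had 0.59 (SE 0.167) and E2f4, a repressor E2F, 0.23 (SE 0.0637), with edgeR adjusted p of 0.109 and 0.105. Ccnd2 had 1.09 (SE 0.135) in replicates 3 and 4 and 0.14 (SE 0.0822) in replicates 1 and 2, a difference with an edgeR interaction p of 0.000155, and 0.364 after adjustment. Its levels were 30.7, 38.1, 19.05 and 174 CPM with hairpin 1, 33.3, 41.6, 20.5 and 186 CPM with hairpin 2 and 26.5, 39.4, 7.77 and 100.2 CPM in the control. They were highest in replicate 4 of each group, as the fibroblast sum was.

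Markers of other cell types were read in the same comparisons. Of 10 fibroblast markers, 3 passed the threshold with hairpin 2 (5.76% of all genes) and all 10 were positive (50.8%), with a median log2 fold change of 0.64, and 5 were higher in all 4 pairs. The 3 were Dcn at 1.02 (SE 0.174), Col14a1 at 1.05 (SE 0.227) and Postn at 1.05 (SE 0.206), with edgeR adjusted p of 0.0113, 0.0274 and 0.0191. When 1 library was left out, Dcn kept its call in all 12 fits, and Col14a1 and Postn lost it in 5 and 4 of 12. With hairpin 1 none passed, 8 were positive and the median was 0.22. None of the macrophage, lymphocyte and endothelial markers passed with hairpin 2: 3 of 12 macrophage markers were positive with a median of -0.46, 2 of 11 lymphocyte markers with -0.90 and 5 of 6 endothelial markers with 0.17. Of 8 epithelial markers 1 passed and 2 were positive, with a median of -0.04; Krt19, a keratin gene named after its value was seen, was highest at 1.02 (SE 0.287) and did not pass. The epithelial marker that passed was Epcam, an adhesion gene, which was lower with hairpin 2 at -0.34 (SE 0.0617) (edgeR adjusted p 0.0151, and at most 0.0504 in the 12 fits without 1 library). No defining fibroblast marker was at 0 in any library, and the part of stromal cells in the cell cycle values was not tested.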

How the data were processed

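Transcripts were measured by bulk RNA-seq in 12 libraries, 4 in each of 3 groups, numbered 1 to 4 in the sample titles. The deposited table holds read counts per gene made by the authors with no normalization, for mm10, and the submitters' processing notes name FastQC 0.74, Trimmomatic 0.39 and DESeq2 1.34.0. The sources used here do not give the aligner, the annotation or the strand setting, so reads of overlapping or antisense genes cannot be told apart. Of 25861 genes, 17025 passed edgeR's filterByExpr at a minimum count of 10 and 8836 were left out; 1 row without a symbol was kept under its gene number. Counts were scaled by TMM and fitted over all 12 libraries with group and replicate number as terms, by edgeR's quasi-likelihood test with Benjamini-Hochberg adjustment over all genes and a threshold of 0.05 (R 4.3.3, edgeR 4.0.16, limma 3.58.1). The fits were tested on simulated data. Log2 CPM used a prior count of 2.

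The numbers in the titles were taken as pairs because the deviations of same-numbered libraries from their group means correlated at 0.855 to 0.916, against -0.807 to 0.727 for other numbers, and 12 of 12 libraries lay closest to their own number. The biological coefficient of variation was 0.141 with the replicate number and 0.648 without it. No libraries were alike within sampling noise: chi-square per degree of freedom between libraries of a group was 54.1 to 612. Totals of 34988358 to 76329473 counts set the precision of each level, and replicate scatter exceeded it.

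Alternatives were DESeq2 1.42.0, no replicate number, other scalings, no filter, the compared groups alone, replicate sets and each library left out. Promoter windows came from RefSeq (GRCm38.p6) and exon lengths from GENCODE M21, with Python 3.11.15, pandas 2.3.3, scipy 1.17.1 and matplotlib 3.10.9. Members shown library by library were those of smallest p over both hairpins and between the hairpins, 2 for replication and 3 for mitosis, plus 12 fixed genes; list genes named were those past the threshold, or otherwise the 2 of smallest p. The members and lists were chosen with earlier results of these data known.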

Additional observations from a re-analysis of the deposited data

Results flagged for a closer look

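In 7 of 126 sets of 4 libraries (each of the 40 genes and the mean log2 CPM of the replication and of the mitosis genes, in 3 groups), replicate 4 was set apart from the others of its group, with a gap to the nearest library, as a part of the group's range on the log2 CPM scale, above Dixon's 95% critical value. Chance flags about 1 in 20 such sets. With hairpin 1 the gap took 0.911 of the range for Mybl2, 0.874 for Ccna2, 0.869 for Cdc20, 0.845 for Mcm2 and 0.831 for Ccnb1. In the control it took 0.865 for Kif20a and 0.846 for Cdt1. Replicate 4 was the lowest library in each, and no set of hairpin 2 was flagged. The summed level of the fibroblast markers was the highest of the group in the same libraries. The marker Col14a1 departed from this in the control, where replicate 3 exceeded replicate 4 by 0.097 in log2 CPM. The part of the fibroblast markers in these values was not tested.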

How the results depend on the processing

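The count of genes past the edgeR threshold depended on the replicate number in the model: 304 for both hairpins, 124 for hairpin 1, 981 for hairpin 2 and 585 for hairpin 2 against hairpin 1 with the replicate block, and 1 in each without it. DESeq2 called 1145, 607, 1856 and 1436 genes with the block and 41, 27, 60 and 50 without it, in the same order. Replicates 1 and 2 alone gave 25, 9, 82 and 84 genes, and replicates 3 and 4 alone 5, 1, 327 and 42. With the compared groups alone, edgeR called 390 genes for hairpin 1 and 97 for hairpin 2. Leaving out 1 library, or 1 replicate number of all groups, gave 26 to 554 genes for both hairpins, 1 to 344 for hairpin 1, 185 to 1076 for hairpin 2 and 66 to 672 between the hairpins. Fewer libraries entered each such fit, yet some counts rose while others fell, and the cause was not tested. Of the 40 cell cycle genes, 0 to 3 were then called for both hairpins, 0 to 2 for hairpin 1, and 0 in the other comparisons. DESeq2 with the block called 1 member for both hairpins and 2 for hairpin 1, and the compared groups alone gave 9 for hairpin 1. The interaction of hairpin and replicate set passed for 0 genes, and for 1 gene with no filter on low counts.

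Without the pairing by replicate number the median log2 fold change of replication and mitosis genes was 0.12 and 0.12 for both hairpins, 0.35 and 0.29 for hairpin 1, -0.03 and -0.09 for hairpin 2, and -0.32 and -0.43 between the hairpins. Over the fits that left out libraries the replication median ran between 0.09 and 0.40 for both hairpins, 0.26 and 0.51 for hairpin 1, -0.10 and 0.30 for hairpin 2, and -0.37 and -0.08 between the hairpins. The mitosis median ran between 0.09 and 0.49, 0.20 and 0.64, -0.14 and 0.50, and -0.55 and 0.02 in the same order. All 15 replication and 23 mitosis genes kept a positive hairpin 1 value under every alternative tried; with hairpin 2, 3 replication and 0 mitosis genes kept 1 sign. Scaling moved the median of all genes by less than 0.1. In promoter windows of 150 bases before the start, E2F matches were in 42.9% of replication, 5.56% of mitosis and 1.66% of all windows, and CHR matches in 7.14% of replication and 77.8% of mitosis windows. Counts of 86 or more per library leave little counting error beside the scatter between replicates.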
